A study of Mus musculus with 6 samples.

Results

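The genes described here build the muscle side of the neuromuscular junction: the subunits of the muscle acetylcholine receptor (Chrna1, Chrnb1, Chrnd, Chrng and Chrne) and the agrin pathway that gathers the receptor under the nerve (Agrn, Lrp4, Musk, Dok7 and Rapsn). They were taken by symbol from the deposited count table, and all 10 were among its 22272 distinct symbols. The libraries came from C2C12 cells, a mouse myoblast line, sampled undifferentiated at day 0. In 3 libraries the cells overexpressed ChREBP-beta, the short and highly active form of the glucose-responsive transcription factor encoded by Mlxipl, and in the other 3 they carried green fluorescent protein (GFP), with a genotype given as WT. The labels give neither the vector nor its promoter, nor whether each library had its own culture, and the spread that p-values rest on may therefore be technical. C2C12 is a clonal line, so all libraries share 1 origin.

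The muscle acetylcholine receptor is a pentamer of 2 alpha subunits with 1 beta, 1 delta and, in fetal or denervated muscle, 1 gamma subunit, which an epsilon subunit replaces in innervated adult muscle. Agrin, released by the motor nerve and also made by muscle, binds LRP4. LRP4 then activates the receptor tyrosine kinase MuSK, whose adaptor DOK7 sustains the signal, and rapsyn anchors the receptors in clusters. The receptor genes are switched on as muscle precursors differentiate, through E-boxes, short promoter motifs bound by MyoD and myogenin.

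ChREBP-beta libraries held less transcript of every receptor subunit that was read at all, and of Lrp4, Musk and Rapsn, while the Agrn libraries of the groups overlapped. Of the 10 genes, 8 had enough counts to be tested, and 7 of these were called lower and none higher (by edgeR's quasi-likelihood test, at a Benjamini-Hochberg adjusted p under 0.05 over 12166 genes). In the same comparison 29.3% of all tested genes were called lower and 29.5% higher, so a call by itself is common here. A call with a change of at least 2-fold downward was made for 7.42% of all tested genes, and all 7 called genes passed that size. The groups did not overlap for these 7, as for 63.2% of all tested genes, or 32% in the lower direction. Chrnd and Chrng passed the filter on low counts only through the GFP libraries, so their calls follow partly from the filter. Chrne and Dok7 were not tested. In RNA from whole cultures, fewer cells that express a gene and less RNA per cell cannot be told apart.

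The promoter windows below are shown because E-box factors are known to control muscle receptor genes, and Agrn, which was not called, is shown beside them. For Chrnd, Lrp4 and Rapsn, which were all called lower, no window was found, so their promoters were not searched. RefSeq windows (GRCm38.p6, 250 bases before to 50 after a start site) were found for 7 of the 10 genes, 9 windows in all. Each is written 5′ to 3′ on the gene's strand. Capitals mark E-boxes (CANNTG, which reads the same on both strands), except in Chrne, where they mark the N-box (CCGGAA, searched on both strands), a motif of nerve-dependent synaptic expression bound by GABP. The windows are chr2:73580289-73580588 (minus strand) for Chrna1, chr1:87205561-87205860 (plus) for Chrng, chr4:58285712-58286011 (plus) for Musk, chr11:70619145-70619444 (minus) for Chrne and chr4:156197439-156197738 (minus) for the upstream start of Agrn.
Chrna1: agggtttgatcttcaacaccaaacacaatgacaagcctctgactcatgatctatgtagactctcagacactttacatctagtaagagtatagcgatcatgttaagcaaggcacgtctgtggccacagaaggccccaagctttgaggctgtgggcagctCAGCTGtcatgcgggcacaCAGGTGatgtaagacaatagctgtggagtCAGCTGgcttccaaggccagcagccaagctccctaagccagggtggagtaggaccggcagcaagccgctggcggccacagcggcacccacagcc
Chrng: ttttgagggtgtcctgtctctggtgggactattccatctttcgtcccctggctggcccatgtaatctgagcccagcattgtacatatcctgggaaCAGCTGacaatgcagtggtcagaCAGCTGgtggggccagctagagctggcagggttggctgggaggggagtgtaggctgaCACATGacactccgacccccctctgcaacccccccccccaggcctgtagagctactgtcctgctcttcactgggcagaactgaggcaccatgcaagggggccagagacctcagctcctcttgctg
Musk: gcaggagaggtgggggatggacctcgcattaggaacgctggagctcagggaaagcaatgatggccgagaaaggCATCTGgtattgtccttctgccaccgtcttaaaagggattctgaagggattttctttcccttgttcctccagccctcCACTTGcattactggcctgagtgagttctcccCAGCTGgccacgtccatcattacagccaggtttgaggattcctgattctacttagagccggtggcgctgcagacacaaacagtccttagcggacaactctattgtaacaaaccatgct
Chrne: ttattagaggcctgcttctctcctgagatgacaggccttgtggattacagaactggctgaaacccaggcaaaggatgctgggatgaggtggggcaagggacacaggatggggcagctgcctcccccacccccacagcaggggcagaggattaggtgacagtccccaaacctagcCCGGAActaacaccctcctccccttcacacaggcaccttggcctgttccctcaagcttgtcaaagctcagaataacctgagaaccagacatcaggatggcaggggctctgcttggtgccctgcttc
Agrn: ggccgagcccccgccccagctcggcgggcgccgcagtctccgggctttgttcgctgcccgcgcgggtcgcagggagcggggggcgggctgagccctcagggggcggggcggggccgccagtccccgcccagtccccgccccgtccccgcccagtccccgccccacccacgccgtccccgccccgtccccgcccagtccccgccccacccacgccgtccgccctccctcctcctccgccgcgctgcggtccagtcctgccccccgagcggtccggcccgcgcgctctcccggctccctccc

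Chrna1, Chrnb1, Chrng and Musk each had 3 E-boxes in their window, a number reached by 17.6% of all 32851 RefSeq mouse windows of this length. At least 1 E-box is common, in 72.3% of all windows. The form CAGCTG, which is counted among the E-boxes and which MyoD and myogenin bind well, occurred 2 times each in Chrna1 and Chrng, against 1.90% of all windows with at least 2. In Chrna1 these lay 92 and 44 bases before the start site, and in Chrng 155 and 132 bases before it. Musk had 1 CAGCTG, 68 bases before its start, as did Chrne, 138 bases before its own. Chrne was the only gene of the 7 with an N-box, 76 bases before the start, and 14.9% of all windows have one. The upstream Agrn window had no E-box and its other window had 1. None of the 9 windows held CACGTG, the E-box form at the core of ChREBP response elements, which 7.15% of all windows have. These matches describe letters in short windows and do not show that a factor binds there.

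**Figure D1:**
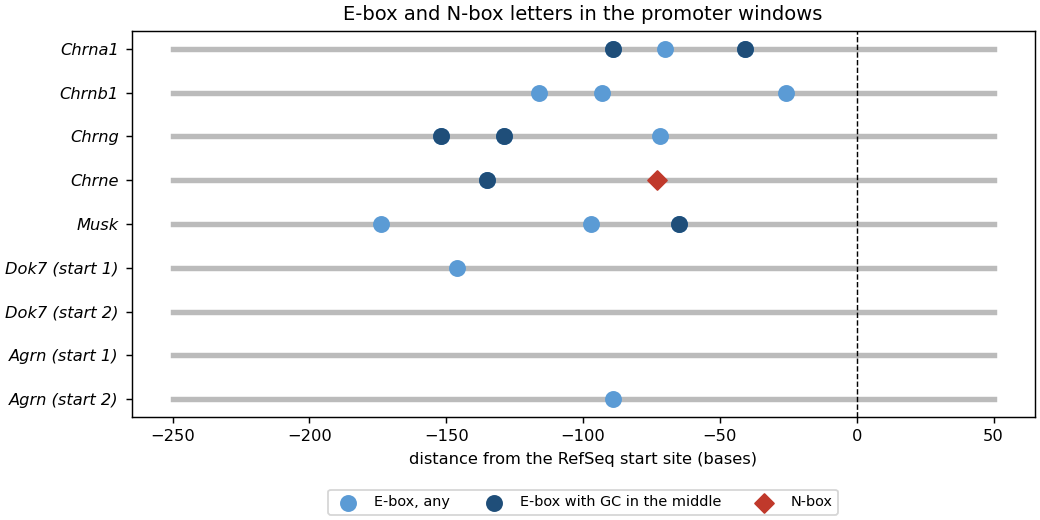
Positions of E-boxes (CANNTG; dark circles have GC as the middle bases) and of the N-box (diamond) in the 9 promoter windows, as distance from the RefSeq start site in bases (dashed line at the start). Chrna1, Chrnb1, Chrng and Musk carry 3 E-boxes each, and the first Agrn window and the second Dok7 window carry none.

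Chrna1 encodes the alpha subunit, which holds the acetylcholine binding sites (ENSMUSG00000027107.3; GRCm38 chromosome 2, 73563215 to 73580338, minus strand). Its level in CPM (the count scaled by library size and TMM factor) was 2.45, 2.76 and 2.89 in ChREBP-beta replicates 1 to 3, against 29.7, 36.7 and 39.9 in GFP replicates 1 to 3. The groups did not overlap, and the lowest GFP library stood 10.3-fold above the highest ChREBP-beta library. The log2 fold change was -3.71 (SE 0.13, edgeR adjusted p = 6.04e-18), or 13.1-fold lower, and GFP replicate 1 was the lowest of its group. The deposited counts of Chrna1 were not whole in 2 of the 6 libraries.

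Chrnb1, the beta subunit (ENSMUSG00000041189.9; chromosome 11, 69784036 to 69795943, minus strand), was at 1.63, 1.33 and 0.983 CPM in the ChREBP-beta libraries, against 5.86, 5.37 and 4.29 CPM in the GFP libraries. Every GFP library lay above every ChREBP-beta library. The log2 fold change was -1.97 (SE 0.25, edgeR adjusted p = 2.74e-07), 3.91-fold lower, a smaller change than that of the alpha subunit with intervals that did not overlap (95% intervals of the log2 fold change -2.45 to -1.48 for Chrnb1 and -3.96 to -3.46 for Chrna1, from the standard errors).

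The delta and gamma subunit genes lie next to each other on chromosome 1 (Chrnd, ENSMUSG00000026251.13, 87190607 to 87200070; Chrng, ENSMUSG00000026253.14, 87204657 to 87212694; both on the plus strand). Neither had a single count with ChREBP-beta. Chrnd had 0, 0 and 0 counts in the ChREBP-beta libraries, against 26, 29 and 27 counts in the GFP libraries. Chrng had 0, 0 and 0 counts in the ChREBP-beta libraries, against 11, 21 and 11 counts in the GFP libraries. A count of 0 over the group allows a level of up to 0.0551 CPM (3 counts over the 3 libraries, for counting error only). Against that floor Chrnd was at least 27.0-fold lower and Chrng at least 14.2-fold lower with ChREBP-beta. Both were called lower (edgeR adjusted p = 1.43e-07 for Chrnd and 2.08e-05 for Chrng).

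Chrne, the adult epsilon subunit (ENSMUSG00000014609.16; chromosome 11, 70614883 to 70619216, minus strand), had 0 counts in all 6 libraries, which allows up to 0.0551 CPM over the ChREBP-beta and 0.0544 CPM over the GFP libraries. In the GFP libraries all 43 counts at the gamma and epsilon genes were thus gamma, a share of 100% (exact 95% binomial interval 91.8% to 100%, over the 3 libraries together). With ChREBP-beta neither gene was read and the share has no value. No read of the adult subunit was thus found in either group. An annotated gene on the other strand, 4930544D05Rik, overlaps Chrne and also had 0 counts in all 6 libraries. Since the use of strand in counting is not known, reads of this pair may have been left out of the counts.

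**Figure D2:**
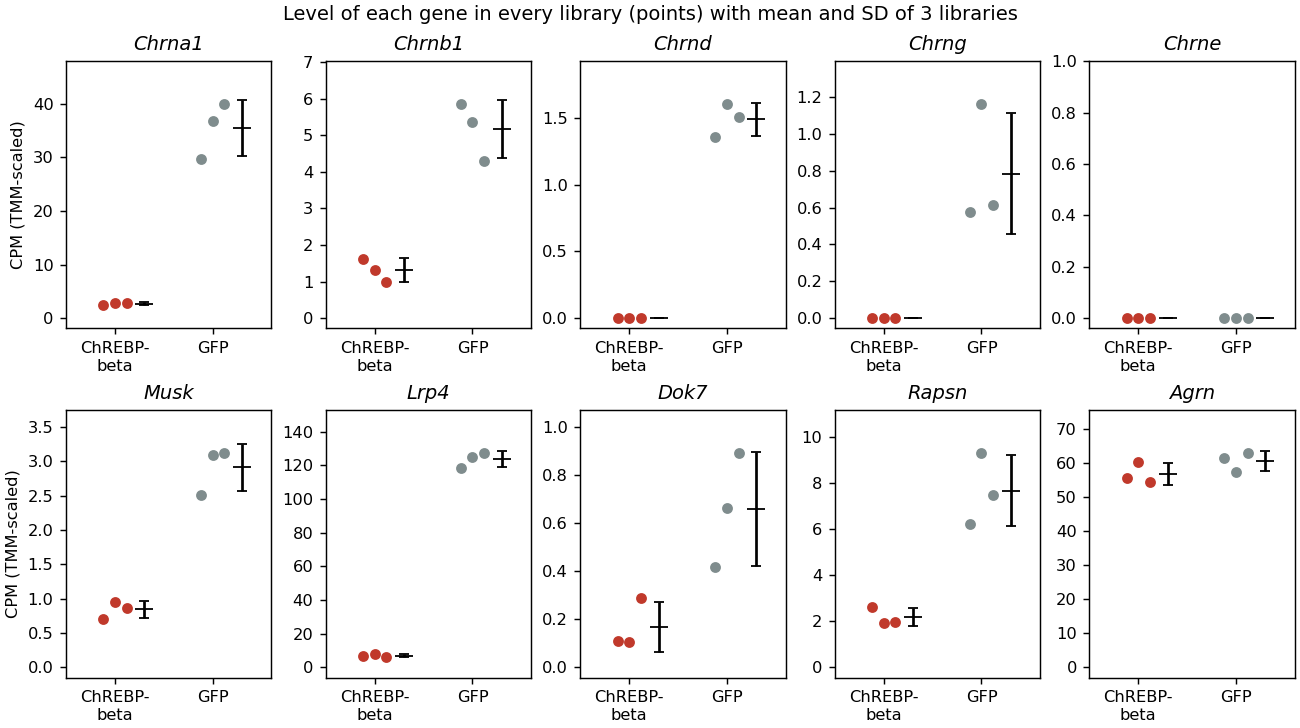
Level of each of the 10 genes in CPM (linear axes from 0, scale differs by panel), with the 3 ChREBP-beta libraries as red points left and the 3 GFP libraries as grey points right, and the mean ± SD of each group as a black bar. ChREBP-beta points lie below GFP points in every panel except Chrne, which was 0 throughout, and Agrn, where the groups overlap.

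Lrp4 encodes the agrin receptor that activates MuSK, a relative of the LDL receptor (ENSMUSG00000027253.15; chromosome 2, 91457511 to 91513779, plus strand). It was at 6.58, 7.87 and 5.96 CPM in the ChREBP-beta libraries, against 118.1, 125 and 127 CPM in the GFP libraries. The spread within groups was small against this gap, 6.80 ± 0.975 CPM with ChREBP-beta and 124 ± 4.84 CPM with GFP (SD, n = 3 each). The log2 fold change was -4.18 (SE 0.070, edgeR adjusted p = 1.88e-24), or 18.1-fold lower.

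Musk, the receptor tyrosine kinase at the centre of the pathway (ENSMUSG00000057280.15; chromosome 4, 58285960 to 58374303, plus strand), had 13, 18 and 15 counts in the ChREBP-beta libraries, against 48, 56 and 56 counts in the GFP libraries. In CPM this was 0.844 ± 0.126 with ChREBP-beta and 2.91 ± 0.345 with GFP (SD, n = 3 each), without overlap. The log2 fold change of -1.78 (SE 0.30, edgeR adjusted p = 1.97e-05) was 3.42-fold lower. Its 95% interval, -2.37 to -1.18, lay wholly above that of Lrp4, -4.31 to -4.04.

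Rapsn encodes rapsyn, the scaffold that binds the receptor's inner side (ENSMUSG00000002104.11; chromosome 2, 91035620 to 91045729, plus strand). Its level was 2.61, 1.91 and 1.97 CPM in the ChREBP-beta libraries, against 6.23, 9.29 and 7.47 CPM in the GFP libraries. The groups did not overlap, and the lowest GFP library was 2.38-fold above the highest ChREBP-beta library. The log2 fold change was -1.82 (SE 0.20, edgeR adjusted p = 2.56e-08), 3.53-fold lower. An annotated gene on the other strand, Gm13778, overlaps Rapsn and is not among the deposited symbols. Since the use of strand in counting is not known, reads of the pair cannot be told apart.

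Dok7, the adaptor that binds and activates MuSK from inside the cell (ENSMUSG00000044716.12; chromosome 5, 35056766 to 35087839, plus strand), had 2, 2 and 5 counts in the ChREBP-beta libraries, against 8, 12 and 16 counts in the GFP libraries. All GFP libraries were higher than all ChREBP-beta libraries, but the counts were too low for the filter. The mean level was 0.168 ± 0.105 CPM with ChREBP-beta and 0.658 ± 0.236 CPM with GFP (SD, n = 3 each). A two-sided exact permutation test gave p = 0.1, the smallest that 3 against 3 libraries allow. Without the filter edgeR called it lower (log2 fold change -1.94, adjusted p = 0.0244), as did DESeq2 (-1.98, adjusted p = 0.0322).

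Agrn encodes agrin, a large heparan sulfate proteoglycan of basement membranes whose nerve-specific splice forms activate LRP4 and MuSK (ENSMUSG00000041936.18; chromosome 4, 156165290 to 156197488, minus strand). It was at 55.8, 60.5 and 54.4 CPM in the ChREBP-beta libraries, against 61.7, 57.4 and 63.1 CPM in the GFP libraries. The groups overlapped and the gene was not called (log2 fold change -0.09, SE 0.053, edgeR adjusted p = 0.137). The 95% interval of the log2 fold change ran from -0.20 to 0.01, so that a fall of more than 1.15-fold lay outside it. The call depended on scaling: Agrn was called lower with upper-quartile scaling (-0.13, adjusted p = 0.0441) and with library-size scaling (-0.14, adjusted p = 0.0300), and over all alternatives its adjusted p lay between 0.0300 and 0.410. Counts per gene do not separate the nerve form of agrin from the muscle form.

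**Figure D3:**
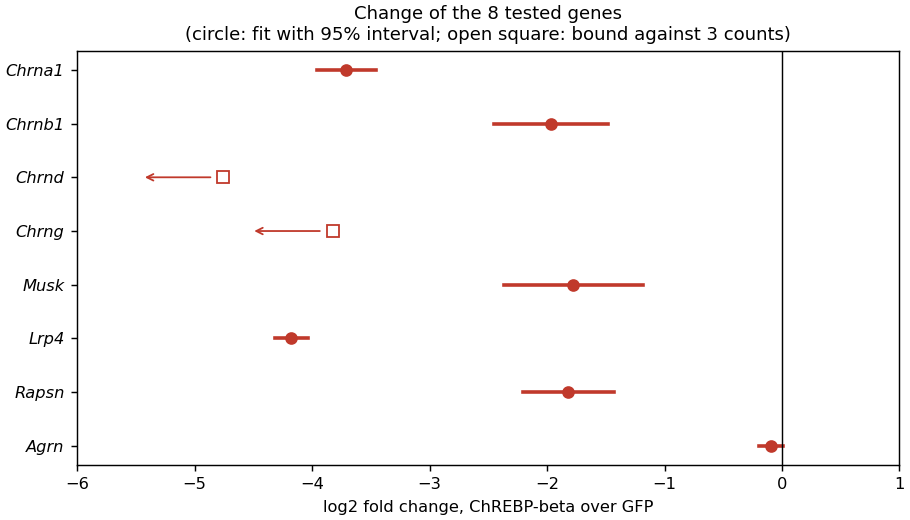
log2 fold change of ChREBP-beta over GFP for the 8 tested genes. Circles with lines are edgeR estimates with 95% intervals. Open squares with arrows are the bounds for Chrnd and Chrng, which had no count with ChREBP-beta. Lrp4 and Chrna1 lie at -4.18 and -3.71, Chrnb1, Rapsn and Musk between -1.97 and -1.78, and Agrn at -0.09.

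Per kilobase of annotated exon, the scale on which genes can be set beside each other, the order of the genes differed between the groups. With ChREBP-beta, Agrn led at 6.13 ± 0.344 CPM per kb (SD, n = 3 for this and the values that follow), followed by Rapsn at 1.20 ± 0.215. Lrp4 (0.648 ± 0.0928), Chrna1 (0.616 ± 0.0520) and Chrnb1 (0.519 ± 0.128) came next and overlapped each other across libraries. Musk was at 0.223 ± 0.0335 and Dok7 at 0.0393 ± 0.0245 CPM per kb. With GFP, Lrp4 led at 11.8 ± 0.459 CPM per kb, followed by Chrna1 at 8.08 ± 1.20 and Agrn at 6.54 ± 0.320, whose libraries overlapped those of Chrna1. Rapsn was at 4.25 ± 0.857, Chrnb1 at 2.04 ± 0.317, Musk at 0.771 ± 0.0915 and Chrnd at 0.453 ± 0.0373. Chrng (0.188 ± 0.0789) and Dok7 (0.154 ± 0.0553) came last of the genes read, and their libraries overlapped. Exon lengths are of all annotated exons of a gene, which need not be the transcripts these cells make.

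The ratio of agrin to its receptor turned over on this scale. Agrn was read at 9.58, 8.70 and 10.3 times the per-length level of Lrp4 in the ChREBP-beta libraries, against 0.591, 0.518 and 0.560 times in the GFP libraries. Lrp4 was at 3.35, 2.96 and 2.47 times the per-length level of Musk in the ChREBP-beta libraries, against 16.9, 14.5 and 14.7 times in the GFP libraries. Rapsn was at 2.60, 1.69 and 1.66 times the per-length level of Chrna1 in the ChREBP-beta libraries, against 0.511, 0.616 and 0.455 times in the GFP libraries. None of these 3 ratios overlapped between the groups, and no test was run on them.

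Summed over the 5 subunit genes, the receptor transcript level was 1.20, 1.16 and 1.05 CPM per kb in the ChREBP-beta libraries, against 9.63, 11.3 and 11.4 CPM per kb in the GFP libraries. The make-up of the sum also differed. Chrna1 made up 46.4%, 54.5% and 62.9% of it in the ChREBP-beta libraries, against 70.2%, 74.4% and 79.8% in the GFP libraries. Chrnb1 made up 53.6%, 45.5% and 37.1% of it in the ChREBP-beta libraries, where it was the whole remainder, against 24.0%, 18.8% and 14.9% in the GFP libraries. Chrnd, present once per receptor as Chrnb1 is, made up between 4.01% and 4.33% of the sum in the GFP libraries and 0% in each ChREBP-beta library. That 0% rests on 0 counts beside a low sum, so a single ChREBP-beta library cannot tell a small share from none.

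**Figure D4:**
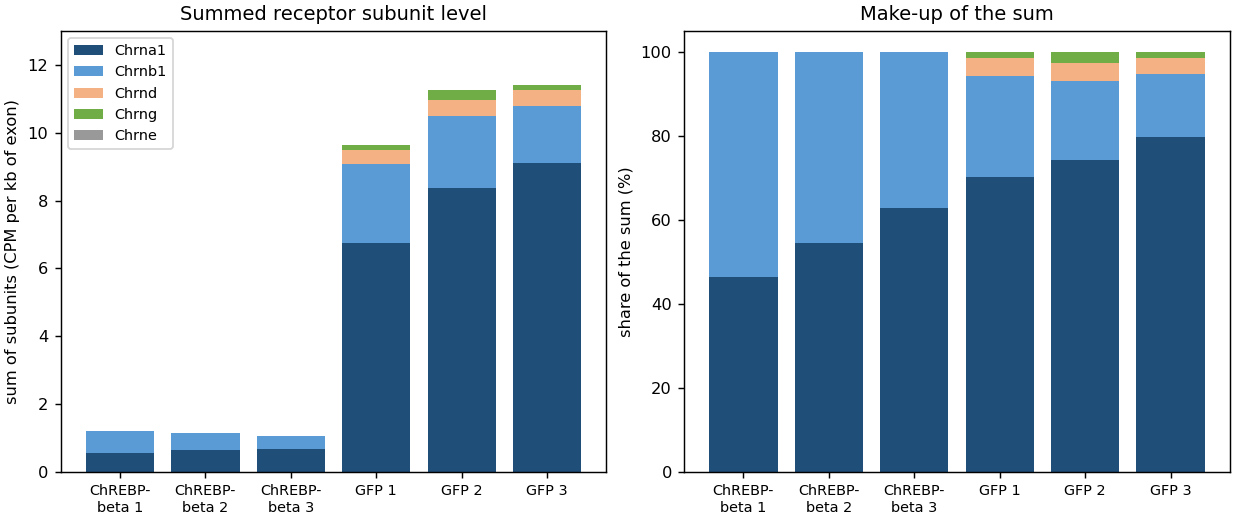
Left, the per-length levels of the 5 receptor subunit genes stacked for each library (CPM per kb of exon). Right, the same as a share of each library's sum (%). The sum lies between 1.05 and 1.20 in the 3 ChREBP-beta libraries and between 9.63 and 11.4 in the 3 GFP libraries, and the delta and gamma layers are seen with GFP alone. Chrne was 0 in every library.

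Other genes of the junction were described through 7 lists, of which 92 of 125 genes were tested, with 32 called higher and 37 called lower. This is 75% called, beside 58.7% of all tested genes, and most of the changes were small. A fall of at least 2-fold was called for 14 of the 92, beside 7.42% of all tested genes. A rise of at least 2-fold was called for 2, beside 4.06% of all tested genes. In the scaffold and synaptic cleft list 10 of 16 tested genes were lower and 6 higher, beside 29.3% lower and 29.5% higher over all tested genes. The median log2 fold change of this list was -0.19, beside -0.0040 over all tested genes. Dtna, alpha-dystrobrevin, a dystrophin-complex protein that keeps receptor clusters stable, was at 2.72, 2.92 and 3.30 CPM in the ChREBP-beta libraries, against 40.7, 39.7 and 41.3 CPM in the GFP libraries (13.6-fold lower, edgeR adjusted p = 1.56e-20). Lama5, a laminin chain of the synaptic basement membrane, was 4.47-fold lower and Nid2, the basement membrane protein nidogen-2, 3.89-fold lower (edgeR adjusted p = 3.21e-20 and 3.99e-21). The counts of Nid2 were not whole in all 6 libraries. Utrn, the synaptic dystrophin relative utrophin, was 1.15-fold lower, whereas the syntrophin gene Sntb1 rose 4.12-fold from low counts. Sntb1 passed the filter only through the ChREBP-beta libraries, so its call follows partly from the filter. Ache, the acetylcholinesterase gene, and Colq, its collagen tail, had too few counts to be tested: Ache had 25 counts over the ChREBP-beta and 21 over the GFP libraries, and Colq 20 over the ChREBP-beta and 17 over the GFP libraries.

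Intracellular partners of MuSK signalling mostly moved by small steps, in both directions (median log2 fold change -0.03). Of 28 tested, 13 were higher, 10 lower and 5 not called, beside 29.5% higher and 29.3% lower over all tested genes. The balance depended on scaling, with 11 higher and 14 lower under upper-quartile scaling and 9 higher and 14 lower under library-size scaling. The SH3-domain adaptor gene Sorbs2 was 7.83-fold lower (edgeR adjusted p = 3.34e-20). Pdzrn3, a ubiquitin ligase that binds MuSK, rose 1.57-fold. A further list held relatives of MuSK, LRP4 and DOK7 together with genes that are not relatives, such as Dkk1. It had 2 genes higher, Dkk1 among them, 3 lower and 6 not called of 11 tested (median log2 fold change 0.05). Over all tested genes 29.5% were higher and 29.3% lower. Without GFP replicate 3, 5 genes of this list were called higher. Dkk1, a Wnt antagonist that binds the LRP4 relatives LRP5 and LRP6, had 561, 653 and 560 counts in the ChREBP-beta libraries, against 6, 12 and 4 counts in the GFP libraries (80.2-fold higher, edgeR adjusted p = 5.08e-20). Ror1, a receptor tyrosine kinase of the family closest to MuSK, had 4, 0 and 3 counts in the ChREBP-beta libraries, against 62, 59 and 66 in the GFP libraries (25.1-fold lower, edgeR adjusted p = 5.39e-09). Dkk1 passed the filter only through the ChREBP-beta libraries and Ror1 only through the GFP libraries. Dok4, whose counts were not whole in all 6 libraries, was 1.66-fold lower.

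Among transcriptional regulators of receptor genes, 10 of 16 tested were lower, 2 higher and 4 not called (median log2 fold change -0.28), beside 29.3% lower and 29.5% higher over all tested genes. Myod1 and Myog, the main E-box activators of the receptor genes, were both lower. Myod1 had 17, 30 and 20 counts in the ChREBP-beta libraries, against 591, 576 and 529 in the GFP libraries (log2 fold change -4.64, edgeR adjusted p = 1.93e-19). Myog, which passed the filter only through the GFP libraries, had 0 counts in every ChREBP-beta library, against 43, 24 and 51 counts in the GFP libraries. Id3, an inhibitor of E-box factors, was 2.15-fold lower and Mef2d 1.65-fold higher (edgeR adjusted p = 2.04e-18 and 4.47e-14). The neuregulin and ETS-factor list, the route to the N-box, had 4 genes higher, 3 lower and 2 not called of 9 tested (median log2 fold change 0.02). Etv5, an ETS factor that mouse synaptic nuclei need for receptor expression, was 1.94-fold lower and its relative Etv4 2.17-fold lower, while Gabpb2, which encodes a subunit of GABP and whose counts were not whole in 2 libraries, rose 1.33-fold (edgeR adjusted p = 6.74e-10, 4.36e-12 and 1.03e-10).

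The machinery that folds and glycosylates the receptor had 5 genes higher, 1 lower and 5 not called of 11 tested, a called share of 54.5%, close to the 58.7% of all tested genes, with a median log2 fold change of 0.09 and none called at 2-fold or more. The chaperone genes Canx, Hspa5 and P4hb rose 1.12-fold, 1.12-fold and 1.10-fold (edgeR adjusted p = 5.58e-06, 9.83e-06 and 3.98e-05). Of 11 receptor subunits of the neuronal type, 1 was tested: Chrnb2, whose counts were not whole in all 6 libraries, was at 1.66 CPM with ChREBP-beta and 1.85 CPM with GFP (log2 fold change -0.16, SE 0.31, edgeR adjusted p = 0.674). The other 10 had at most 2 counts over a group.

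**Figure D5:**
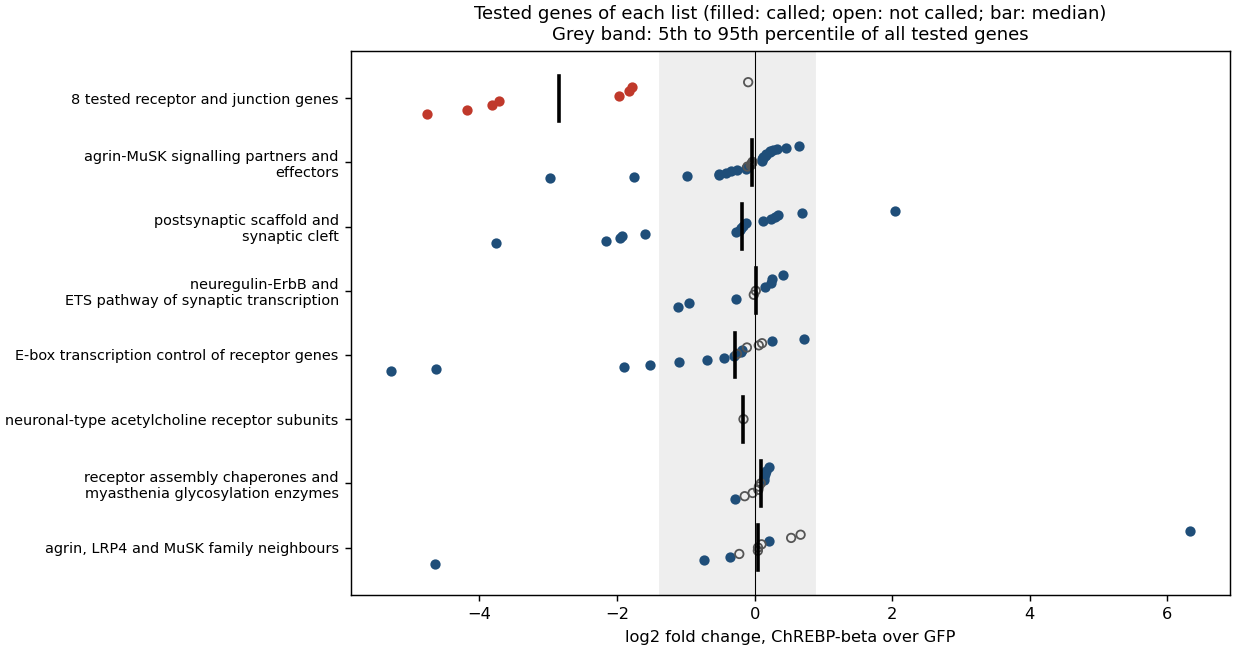
log2 fold change of ChREBP-beta over GFP for the tested genes of each list, with Chrnd, Chrng and Myog at their bounds. Filled points were called, open points were not, black bars are list medians, and the grey band runs from -1.37 to 0.87, the range between the 5th and 95th percentiles of all tested genes. Agrn is the open point of the top row, and the other 7 tested genes of that row lie left of the band.

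The genes whose profile over the 6 libraries was most like that of Chrna1 were Synpo2, Dtna, Cdhr1, Adgrl3 and Chrnd. Likeness was the mean absolute difference of log2 CPM after each gene's own mean was removed (prior count 2), and it was 0.091 for Synpo2, 0.099 for Dtna, 0.12 for Cdhr1, 0.13 for Adgrl3 and 0.14 for Chrnd. With 2 groups of 3 libraries this measure mainly finds genes with a like difference between the groups. Chrnd had no count with ChREBP-beta, so its likeness to Chrna1 depends on the prior count. Against the floor of 3 counts Chrnd was at least 27.0-fold lower, beside a fitted 13.1-fold for Chrna1.

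Several facts of the libraries stand beside these results. The deposited counts summed to between 17665571 and 19163834 in ChREBP-beta libraries and between 17600238 and 18843244 in GFP libraries. Mlxipl, the overexpressed gene, was at 219 ± 3.85 CPM in ChREBP-beta libraries and 0.599 ± 0.111 CPM in GFP libraries (SD, n = 3 each), which fits the labels. All 8 myoblast markers were called lower with ChREBP-beta, beside 29.3% of all tested genes. Pax7 passed the filter only through the GFP libraries, so its call follows partly from the filter. The myoblast list, led by Des and Vcam1, summed to 244 to 259 CPM in ChREBP-beta libraries and 573 to 611 CPM in GFP libraries. Of 10 markers of differentiating myocytes, led by Acta1 and Myog, 4 were tested, and the list summed to 2.23 to 2.88 CPM in ChREBP-beta libraries and 11.5 to 13.9 CPM in GFP libraries. Of these 4, Acta1 was lower, while Myog, Actc1 and Myh3 passed the filter only through the GFP libraries. Mature fibre markers, led by Myh1 and Mylpf, summed to 0.347 to 0.478 CPM in ChREBP-beta libraries and 3.49 to 5.18 CPM in GFP libraries, with Myh4 at 0 throughout. The 3 tested, Myh1, Mylpf and Atp2a1, passed the count filter only through the GFP libraries, so their calls follow in part from the filter. The part of differing numbers of myoblasts or of differentiating cells in the receptor results was not tested.

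Markers of the nerve side were few. Chat and Slc18a3, which define cholinergic neurons, had 0 counts in all 6 libraries, while the motor neuron list summed to 1.10 to 1.59 CPM in ChREBP-beta libraries and 7.90 to 9.90 CPM in GFP libraries, mainly Syt1 and Isl1. Of the 3 tested, Isl1 was lower, while Syt1 and Nefl passed the filter only through the GFP libraries. Slc5a7, the choline transporter gene of cholinergic nerve endings, had 0, 0 and 0 counts in the ChREBP-beta libraries, against 9, 14 and 11 counts in the GFP libraries, too few to be tested. Of 7 Schwann cell markers Sox10 was at 0 throughout, 1 of 3 tested was lower, and the list summed to 169 to 174 CPM in ChREBP-beta libraries and 193 to 202 CPM in GFP libraries, nearly all Pmp22. Fibroblast markers, led by Cd34 and Ly6a, summed to 875 to 900.0 CPM in ChREBP-beta libraries and 827 to 862 CPM in GFP libraries. Of the 6 tested, 4 were higher and 2 lower, beside 29.5% higher and 29.3% lower over all tested genes. Pi16, 1 of the 4 higher, passed the filter only through the ChREBP-beta libraries. Hepatocyte markers (Alb and Apob highest), lung markers (Scgb1a1 and Sftpc) and blood markers (Hbb-bs and Hba-a1) were read in libraries of both groups, and none of the 13 tested was called. The part of the nerve, Schwann cell and fibroblast lists in the receptor results was not tested. These foreign markers differed widely between GFP libraries. The hepatocyte sum was 13.6 to 20.0 CPM in ChREBP-beta libraries, against 0.732, 0.664 and 24.0 CPM in GFP replicates 1 to 3. The lung sum was 68.4 to 90.1 CPM in ChREBP-beta libraries, against 0.576, 135 and 94.2 CPM in GFP replicates 1 to 3. The blood sum was 6.30 to 10.3 CPM in ChREBP-beta libraries, against 4.08, 8.46 and 11.3 CPM in GFP replicates 1 to 3. The 7 called genes were called with these foreign markers removed from the table, an alternative added after the data were seen.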

How the data were processed

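RNA sequencing libraries of 3 ChREBP-beta and 3 GFP samples were grouped by their titles. Estimated counts per gene symbol were deposited by the authors as 1 table, not normalized, and 7.74% of the values are not whole (compared with their rounded values, tolerance 1e-09). The submitters' processing notes list TopHat2 2.0.0, Bowtie2 2.0.0.5 and fastp. They name GRCg6a, which is a chicken genome, although the symbols are of mouse genes. The sources used here do not give the mouse build, annotation, counter or strand setting, so genes that overlap, on 1 strand or on both, share an uncertain count.

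Rows of the 24 repeated symbols were summed and counts were rounded. With edgeR 4.0.16 (R 4.3.3), filterByExpr (minimum count 10, minimum total 15) kept 12166 genes, TMM scaled the libraries, and ChREBP-beta was compared with GFP by glmQLFit and glmQLFTest, two-sided, with Benjamini-Hochberg adjustment. Standard errors are the log2 fold change over the square root of F, and 95% intervals follow from them by the normal distribution. Libraries of a group differed by more than sampling noise (chi-square per degree of freedom 2.15 to 3.96), and all 6 were kept. Floors and binomial intervals cover counting error only. Exon lengths and gene positions are from GENCODE M21 (GRCm38) by symbol, and promoter windows are from RefSeq (GRCm38.p6). Neither need be the annotation the authors used. The procedure was tested on simulated data.

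The genes, the 7 gene lists and the 9 marker lists were chosen with earlier results of these data known. Named are the 10 genes, Mlxipl, for each list up to 3 genes ranked by adjusted p, called list genes with at most 3 counts in a group, the 2 most abundant markers of each marker list and the 5 genes most like Chrna1. Some genes that the rule picks are not reported here. Utrn, Sntb1, Ache and Colq were picked after their values were seen. Results were recomputed with DESeq2 1.42.0 and limma-voom (limma 3.58.1), with scaling by RLE, by upper quartile, by library size or leaving out Mlxipl and the 10 genes of highest count, without a filter or keeping genes at a mean of 5 CPM or more, with a replicate block, with each library left out, with truncated counts, with a 2-fold minimum and, added later, a table without foreign markers.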

Additional observations from a re-analysis of the deposited data

How the results depend on the processing

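The 7 calls among the receptor and junction genes (Chrna1, Chrnb1, Chrnd, Chrng, Musk, Lrp4 and Rapsn) kept their direction and their side of the threshold under every alternative that could fit them. With a mean CPM of at least 5 required, only Chrna1, Lrp4 and Agrn remained in the table and 2 genes were called lower. The number called lower was 7 to 8 with 1 library left out, the additional gene being Dok7, which then passed the filter through GFP libraries, and 0 were called higher under any alternative. Under a 2-fold minimum 1397 genes were called in all (7145 without it; 6505 to 6823 with 1 library left out), and 16 list genes (69 without it; 64 to 70 with 1 library left out). Chrnb2, not called, changed direction without GFP replicate 3 (0.093, range -0.32 to 0.093 with 1 library left out). The share of Chrng among gamma and epsilon reads was 100% in counts and per length. Scaling moved the median of all genes to between -0.05 and -0.00011. With the replicate number as a block 6902 genes were called, 7 of the receptor and junction genes and 68 list genes. Same-numbered libraries did not deviate together (correlations -0.032, -0.0081 and -0.097 over 8903 genes), and 0 of 3 ChREBP-beta libraries correlated best with its own number. Depth limits Dok7, Chrnd, Chrng, Chrne, Ache and Colq, all below 2 CPM, and for Chrnd and Chrng the fitted change depends on the prior count, so bounds are given.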
